A study of Mus musculus with 16 samples.

Results

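The T cell identity genes described here were the 10 mouse genes Cd3e, Cd3d, Cd3g, Cd4, Cd8a, Cd8b1, Tcf7, Bcl11b, Lck and Foxp3, named by symbol and not chosen by a threshold on these data, out of 21938 protein-coding genes. The assay was ATAC-seq: a transposase, Tn5, inserts adapters where chromatin is accessible, and stretches with more insertions than the background were deposited as peaks. They came from spleen, lung, white adipose, brown adipose, liver, kidney, heart and muscle of male C57BL/6 wild-type mice that were either fed without limit or fasted for a day. Frozen tissue of several mice of the same state was pooled before nuclei were isolated, so each of the 16 libraries was the only library of its tissue and state and no value below has a replicate. A gene was scored in each library by its strongest promoter peak, a peak whose summit lay within 3000 bp of any annotated transcript start, and the score was the percentile of that peak's −log10 p among all peaks listed for that library. A score of 0 means that no peak was listed there. A peak or promoter was called open when its q-value was under 0.01.

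T cells recognise peptides through a T cell receptor that signals through the CD3 chains, with CD4 or CD8 as coreceptor and the kinase LCK as the first enzyme of the cascade. The transcription factors TCF1 (made by Tcf7) and BCL11B establish and hold T cell identity, and FOXP3 defines regulatory T cells. The spleen is a lymphoid organ rich in T and B cells, the lung holds T cells in its tissue and vessels, and the parenchymal cells of liver, kidney, heart, muscle and fat do not express the T cell receptor complex. In a whole tissue, a smaller number of T cells and a lower accessibility in each T cell cannot be told apart.

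The depth of the libraries differed. The background tag number at a summit, solved from the listed fold and p, was lowest in fed liver (2.80) and fasting liver (2.82), was 3.20 and 3.35 in fed and fasting spleen, 8.92 and 7.14 in fed and fasting lung, and was highest in fed brown adipose (12.8). Each library listed between 298996 and 299529 peaks, nearly the same number in each, and the lowest −log10 p listed differed, from 2.48 in fasting brown adipose to 7.11 in fed brown adipose. At background level a peak needed at least 21 tags to be listed in fasting lung, 24 in fed lung and 11 in fed spleen. Genes known from other tissues had their highest mean score in the labelled tissue for 7 of 8 tissues, the exception being white adipose, where brown adipose was higher.

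The starts of the members differed in their content of CpG dinucleotides. The 110 bases before the starts of Cd3e, Cd3g, Cd4, Cd8a and Cd8b1 and before the 5′-most start of Lck held 0 to 5 of them. The sequences under the peaks of Tcf7, Bcl11b and the 3′-most start group of Lck, 77 to 121 bases long, held 7 to 13. Both sets are shown because the region over each of the former was open in 3 to 6 libraries and that over each of the latter in 8 or more. Each is written 5′ to 3′ on the strand of its gene, from the GRCm38 genome, with CpG dinucleotides in capitals. The first 6 are the 110 bases that end at the base before the start and the others surround a peak summit, trimmed where an exon began.
Cd3e, chr9:45009628-45009737, minus strand: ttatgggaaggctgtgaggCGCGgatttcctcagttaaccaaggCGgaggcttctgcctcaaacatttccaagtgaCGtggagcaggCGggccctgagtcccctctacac
Cd3g, chr9:44980432-44980541, minus strand: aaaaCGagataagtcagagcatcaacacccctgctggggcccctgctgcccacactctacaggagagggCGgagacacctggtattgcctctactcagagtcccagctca
Cd4, chr6:124888222-124888331, minus strand: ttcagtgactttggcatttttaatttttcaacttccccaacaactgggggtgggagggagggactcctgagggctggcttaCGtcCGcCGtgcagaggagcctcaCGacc
Cd8a, chr6:71373317-71373426, plus strand: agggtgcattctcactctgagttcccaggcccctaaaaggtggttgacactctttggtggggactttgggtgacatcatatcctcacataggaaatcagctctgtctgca
Cd8b1, chr6:71322678-71322787, plus strand: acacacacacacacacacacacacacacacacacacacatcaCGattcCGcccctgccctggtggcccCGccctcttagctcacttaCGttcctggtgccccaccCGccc
Lck, 5′-most start, chr4:129573642-129573751, minus strand: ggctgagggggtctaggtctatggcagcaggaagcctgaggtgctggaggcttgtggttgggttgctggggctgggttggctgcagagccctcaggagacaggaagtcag
Lck, 3′-most start group, chr4:129556567-129556643, minus strand: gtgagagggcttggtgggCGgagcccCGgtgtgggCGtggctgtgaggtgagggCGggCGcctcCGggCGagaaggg
Tcf7, chr11:52283407-52283527, minus strand: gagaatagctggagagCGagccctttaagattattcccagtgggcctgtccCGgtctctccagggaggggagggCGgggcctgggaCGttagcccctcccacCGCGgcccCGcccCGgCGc
Bcl11b, near the start, chr12:108004137-108004257, minus strand: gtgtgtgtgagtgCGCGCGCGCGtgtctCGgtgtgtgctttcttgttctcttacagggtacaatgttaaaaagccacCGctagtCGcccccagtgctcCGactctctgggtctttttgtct
Bcl11b, upstream, chr12:108006316-108006436, minus strand: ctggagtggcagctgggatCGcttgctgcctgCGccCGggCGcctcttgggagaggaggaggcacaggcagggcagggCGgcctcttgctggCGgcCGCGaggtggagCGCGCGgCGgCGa

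Over 250 bp on each side of a start, the ratio of observed to expected CpG was 0.33 at the 5′-most start of Cd3e, 0.15 at Cd3d, 0.12 at Cd3g, 0.40 at Cd4, 0.32 at Cd8a, 0.24 at Cd8b1 and 0.22 at Lck. It was 0.93 at Tcf7, 0.76 at the 5′-most start of Foxp3, 0.69 at the 3′-most start group of Lck and 0.65 at Bcl11b. The median over the 5′ ends of 21938 protein-coding genes was 0.59.

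The question asked first was in which tissues the promoters of these genes were open. All 10 members had an open promoter in both spleen libraries, beside 73.2% of all protein-coding genes, and 6 of 10 had one in both lung libraries, beside 72.3%. In the other tissues the members fell below the share of all genes. The number open in both libraries was 5 in white adipose (all genes, 70.7%), 4 in brown adipose (67.9%), 5 in liver (70.9%), 4 in kidney (72.9%), 5 in heart (67.8%) and 5 in muscle (69.2%). Tcf7, Lck and Foxp3 were open in all 16 libraries, so the remaining 7 members carried the difference between tissues. The Foxp3 peak lay nearer the start of the neighbouring gene Ppp1r3f, as described below.

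**Figure D1:**
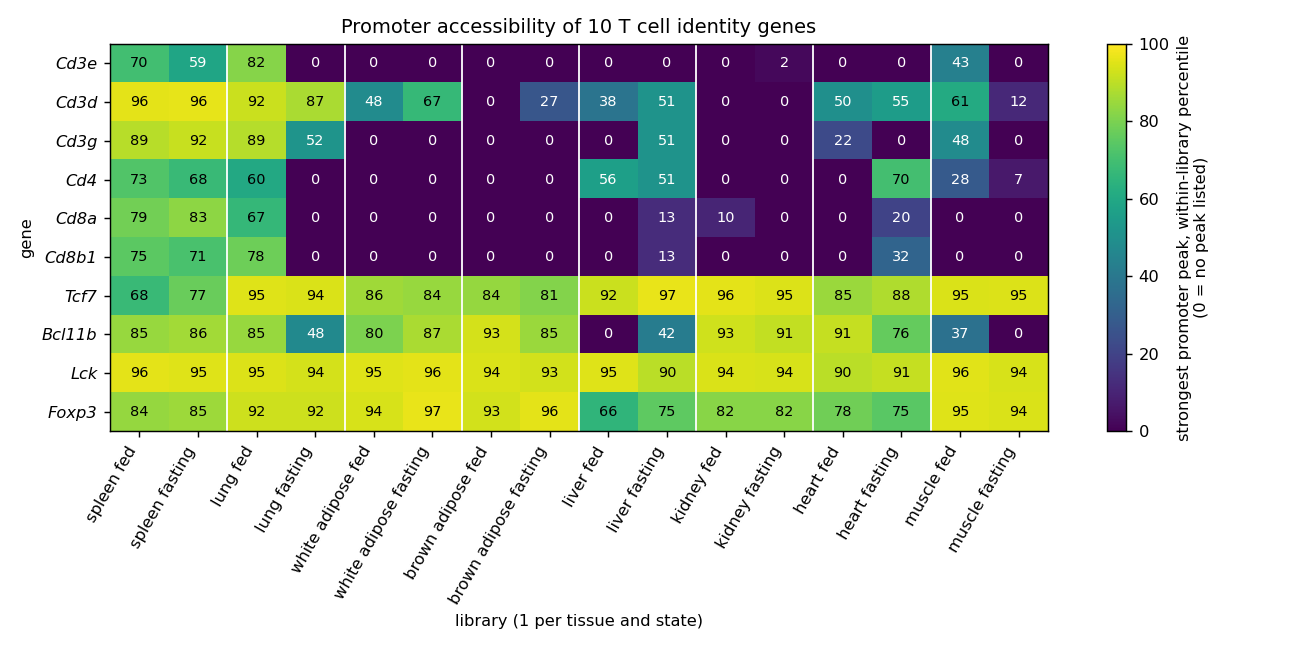
Heat map of the score of each member (rows) in each of the 16 libraries (columns): the percentile, from 0 to 100, of the strongest promoter peak among all peaks of that library, with 0 where no peak was listed. The CD3 and coreceptor genes are bright in spleen and fed lung and mostly at 0 elsewhere, and Tcf7, Lck and Foxp3 are bright in every column.

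The CD3 chains carry the signal of the T cell receptor across the membrane. At Cd3e (chr9:44998740-45009627, minus strand) the score was 69.9 in fed spleen, 58.6 in fasting spleen, 81.7 in fed lung and 0 in fasting lung. Of the 12 libraries of the 6 other tissues, 10 listed no peak, and the peaks of fed muscle (43.4) and fasting kidney (2.33) lay 2820 and 2780 bp downstream of an internal start. The spleen and fed lung summits lay within 10 bp of the 5′ start. They rested on 20 tags in fed spleen, 19 in fasting spleen and 87 in fed lung, against 3.37, 4.17 and 11.6 expected.

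Cd3d (chr9:44981786-44987339, plus strand) had the highest spleen score among the CD3 and coreceptor genes. The score was 96.0 in fed and 96.3 in fasting spleen, 91.9 in fed and 87.3 in fasting lung, and in the other 12 libraries ran from 0 to 67.1 with a median of 43.3. This peak did not lie at the 5′ start. Its spleen summits were 639 and 645 bp downstream of an internal start, in an annotated untranslated exon of the gene. Within 1000 bp of the 5′ start of Cd3d the score was 42.8 in fed spleen, 35.7 in fasting spleen, 65.1 in fed lung and 0 in the 13 other libraries. Cd3d thus had a start listed in spleen and fed lung and a stronger internal region that was open in 13 of 16 libraries.

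Cd3g (chr9:44969572-44980431, minus strand) is transcribed away from Cd3d, with 1355 bp between the starts, so a peak between them counts for both genes. Its score was 89.2 in fed and 91.7 in fasting spleen, 88.9 in fed and 51.7 in fasting lung. Only 3 of the 12 other libraries listed a peak, with fasting liver the highest at 51.5, from a peak of 15 tags that also set the Cd3d score there. The spleen and lung summits lay 23 to 52 bp upstream of the Cd3g start, on 48 and 59 tags in fed and fasting spleen, 136 in fed lung and 34 in fasting lung.

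CD4 is the coreceptor of helper T cells. At Cd4 (chr6:124864692-124888221, minus strand) the score was 72.9 in fed and 67.8 in fasting spleen, 60.3 in fed lung and 0 in fasting lung. In spleen this value came from an intron peak 2900 and 2898 bp downstream of the start. Within 1000 bp of the 5′ start group the scores were 41.9 and 50.9 in fed and fasting spleen and 60.3 in fed lung. In the same window fasting heart scored 32.1 and the 12 other libraries 0. The liver scores of 56.3 and 51.5 came from peaks 1941 and 2033 bp upstream of an internal start, and the fasting heart score of 70.0 from the intron peak.

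CD8 is the coreceptor of cytotoxic T cells, a pair of chains from the neighbouring genes Cd8a and Cd8b1. Cd8a (chr6:71373427-71379173, plus strand) scored 78.5 and 82.8 in fed and fasting spleen, 66.8 in fed lung and 0 in fasting lung, and in the other 12 libraries 9 listed none, with 20.3 in fasting heart the highest. Cd8b1 (chr6:71322788-71337494, plus strand) scored 74.6 and 71.3 in spleen, 78.1 in fed lung and 0 in fasting lung, and 10 of the other 12 listed none, with 32.1 in fasting heart the highest. Both genes thus stood out in the same 3 libraries. The Cd8b1 start lies 555 bp from that of Smyd1, a muscle gene, and neither muscle library listed a peak in the Cd8b1 promoter window.

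Lck (chr4:129548344-129573641, minus strand) looked the same in all tissues on the gene score and different in spleen and fed lung when its starts were taken apart. The gene score ran from 89.6 to 96.0 over the 16 libraries. Within 1000 bp of the 3′-most start group it was 92.2 and 88.3 in fed and fasting spleen and 89.6 to 95.9 in the 12 libraries outside spleen and lung. The other start groups were lower outside spleen and lung. Within 1000 bp of the middle start group the scores were 88.2 and 86.3 in fed and fasting spleen, 77.2 in fed lung, 51.2 in fasting lung and 0 to 30.8 in the 12 others. Within 1000 bp of the 5′-most start they were 91.2 and 87.7 in spleen, 70.9 in fed lung, 46.5 in fasting lung and 0 to 35.9 in the 12 others. The single regions nearest these starts were listed in fewer libraries. A region 57 bp upstream of the middle start group was listed in both spleen libraries and fed lung and in no other library. A region 13 bp downstream of the 5′-most start was listed in both spleen libraries, fed lung and fasting heart. A further region, 1778 bp upstream of the 5′-most start, was the strongest Lck peak in spleen, at 96.0 and 95.0, with 87.6 in fed and 68.9 in fasting lung and at most 61.4 elsewhere.

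Tcf7 (chr11:52252371-52283014, minus strand) was open in every library and was lowest in spleen. Its score was 67.8 and 77.0 in fed and fasting spleen, 95.1 and 94.5 in fed and fasting lung, and 81.4 to 96.5 in the other 12 libraries with a median of 90.1, so the spleen range did not overlap that of any other tissue. In the 14 libraries outside spleen the strongest summit lay between 442 and 474 bp upstream of the start, in the sequence printed above. The fasting spleen summit lay 344 bp upstream and the fed spleen summit 1454 bp upstream. An intron region of Tcf7, 13888 bp downstream of the start, was higher in spleen and lung. It scored 92.3 and 94.6 in spleen and 90.2 and 88.3 in lung, against 0 to 51.2 in the other 12 libraries, with liver at 44.5 and 40.5 and fed heart highest.

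Bcl11b (chr12:107910403-108003602, minus strand) had 2 upstream regions with different tissue patterns. The near region, 620 bp upstream, scored 79.4 and 82.1 in fed and fasting spleen, 84.6 in fed lung and 47.6 in fasting lung. In the 12 other libraries it ran from 0 to 72.7, the highest in fasting kidney. The far region, 2683 bp upstream, scored 84.6 and 86.0 in spleen, 64.4 in fed lung and 0 in fasting lung. It reached 93.4 in fed brown adipose, 92.7 in fed kidney and 91.2 in fed heart, above both spleen libraries, and was not listed in fed liver or fasting muscle.

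Foxp3 (chrX:7573644-7595245, plus strand) showed the same division between starts. Its gene score was 84.0 and 85.4 in spleen, 92.5 and 92.4 in lung, and 65.6 to 96.7 in the other 12 libraries. The summit of that peak lay 468 to 1234 bp downstream of the 5′-most annotated start. On the same side, 604 bp from this start, lies the start of Ppp1r3f, which encodes a regulatory subunit of protein phosphatase 1. The summits were thus nearer the Ppp1r3f start, and the gene score cannot be assigned to Foxp3. No library listed a peak within 1000 bp of the middle start group, around chromosome X position 7579567. Near the 3′-most start group only spleen listed any, at 21.5 in the fed and 59.4 in the fasting library. When each peak was counted only for the gene with the nearest start, a rule added after the values were seen, the mean Foxp3 score became 58.2 in spleen, 21.5 in lung and 24.4 over the 6 other tissues.

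**Figure D2:**
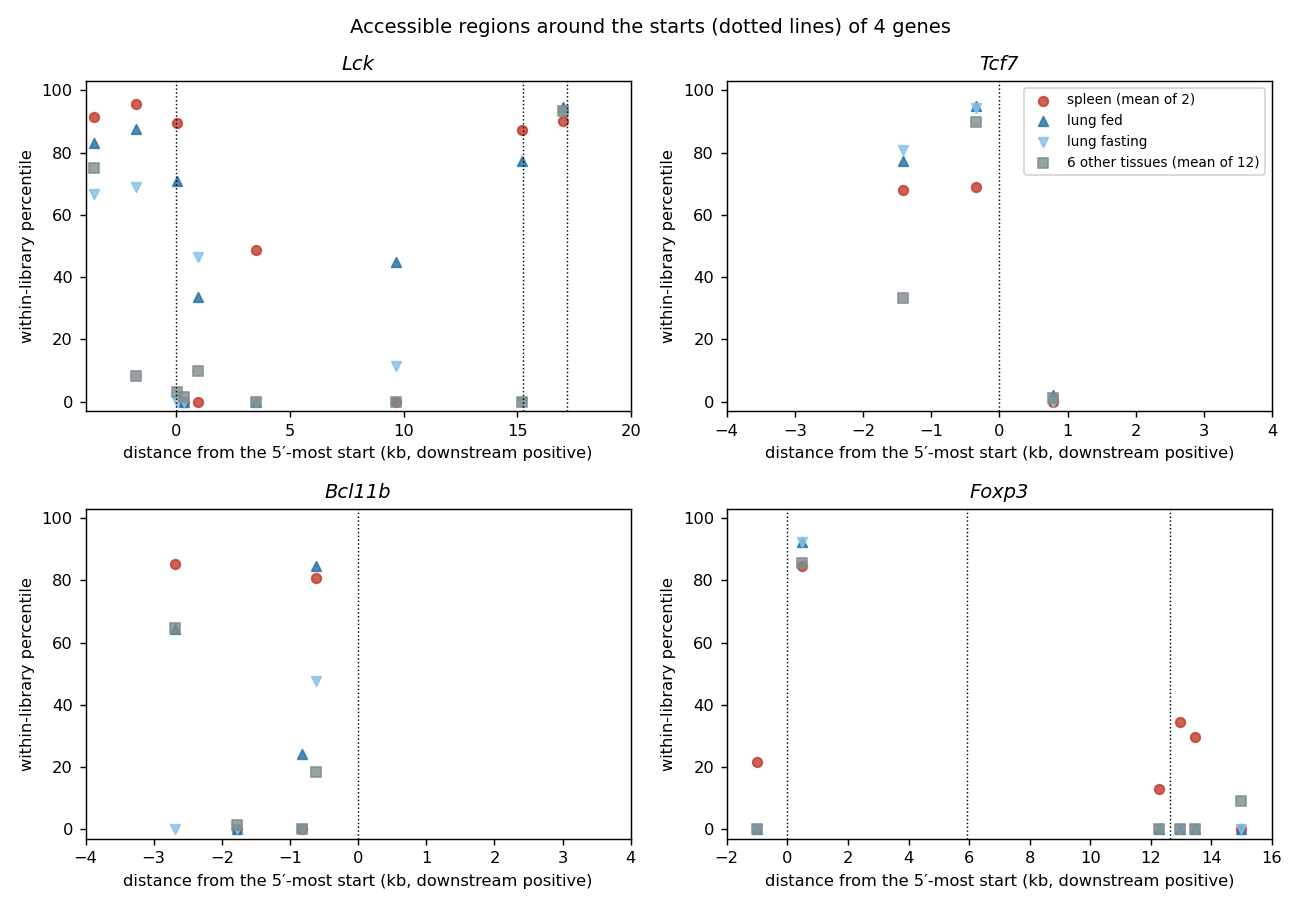
Scores (percentile, y axis) of accessible regions by distance from the 5′-most start (x axis, kb, downstream positive) at Lck, Tcf7, Bcl11b and Foxp3; dotted lines mark the first start of each start group, and each symbol is spleen (mean of 2 libraries), fed lung, fasting lung or the mean of the 12 other libraries. At Lck the spleen and fed lung symbols are high at all 3 start groups and the mean of the other tissues is high only at the 3′-most.

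Spleen had the highest mean score of the 8 tissues at 7 of 10 members, against 17% of all protein-coding genes. These were Cd3e, Cd3d, Cd3g, Cd4, Cd8a, Cd8b1 and Lck, and the lead at Lck was 0.1 points over white adipose (95.5 against 95.4). Of 8 tissues, spleen ranked 3 at Bcl11b, 5 at Foxp3 and 8 at Tcf7. With each peak counted only for its nearest gene, spleen ranked 1 at Foxp3. In the stricter form, both spleen libraries scored above each of the 14 others at 3 members, Cd3d, Cd3g and Cd8a, against 8.37% of all genes. The mean score in spleen exceeded the mean of the 7 other tissues by 72.8 points at Cd8a, 71.7 at Cd3g, 64.2 at Cd8b1, 55.1 at Cd3e, 54.1 at Cd3d and 50.8 at Cd4. The lead of spleen alone was not tested, since the smallest one-sided p of an exact permutation over the 8 tissue means is 0.125.

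Spleen and lung both scored above the 6 other tissues at 5 members, Cd3e, Cd3d, Cd3g, Cd8a and Cd8b1, against 6.64% of all genes. For each of these 5 the exact permutation test over the 28 choices of 2 tissues gave a one-sided p of 0.036, the smallest this design allows and the value that this criterion itself fixes, so it adds no support. Adjusted over all protein-coding genes by Benjamini-Hochberg it was 0.54, and no gene of the 21938 passed 0.05 (lowest adjusted value 0.54 by the exact permutation test). The mean difference between the pair and the 6 tissues was 70.2 points at Cd3g, 58.7 at Cd3d, 53.4 at Cd8a, 52.3 at Cd8b1 and 48.7 at Cd3e. Cd4 missed the criterion because liver (53.9) and heart (35.0) lay above lung (30.2), with an exact permutation p of 0.11.

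The second question was whether the members differed between fed and fasting mice. In spleen they hardly did on this score: the median difference, fasting minus fed, was 0.84 points. Cd3e differed by −11.2 points, the largest decrease, and Tcf7 by 9.2, the largest increase. Thus 1 of 10 members was lower by 10 points or more, beside 8.51% of all genes, and none was higher by that much, beside 6.99%. These counts depended on the processing. Tcf7 was higher by 16.2 in windows of 1000 bp, 13.8 ranked by fold and 17.7 with tags scaled to a common background. With scaled tags Cd8a was higher by 10.2 and Cd3e differed by −8.8. Foxp3 was higher by 19.0 with the nearest gene only, and Cd3g by 15.1 among the 50000 strongest peaks. Over distinct regions Cd3e differed by −9.7.

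In lung all 10 members scored lower in the fasting library, beside 40.4% of all genes, and the median difference was −37.1 points. The shares of all genes include 5702 with no peak listed in fed lung, which could not be lower, whereas every member had one. Of all genes, 8863 were lower and 7633 higher. Ranked by fold instead of p, Cd3d (2.9), Foxp3 (1.5), Tcf7 (1.0) and Lck (1.0) were slightly higher in fasting lung, which left 6 of 10 lower. Foxp3 was also higher by 14.4 with each peak counted for its nearest gene only, and by 1.2, 0.62 and 0.068 with tags scaled to a common background, with ranks among promoters and over distinct regions. The decrease was 10 points or more at 6 members, beside 5.53% of all genes, and no member was higher by that much, beside 3.53%. These shares were not matched for the score in fed lung, whose median was 86.7 over the members and 91.3 over all genes. Cd3e, with −81.7, had the largest decrease, then Cd8b1 (−78.1), Cd8a (−66.8), Cd4 (−60.3), Cd3g (−37.2) and Bcl11b (−37.0). At Cd3e, Cd4, Cd8a and Cd8b1 the fasting lung library listed no promoter peak at all. Open in fed and not in fasting lung thus described 4 of 10 members and 1.71% of all genes. Cd3d differed by −4.6 points, Lck by −1.0, Tcf7 by −0.6 and Foxp3 by −0.02 points. Of the members open in at least 13 libraries, these 4 thus differed by under 5 points and Bcl11b by −37.0.

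**Figure D3:**
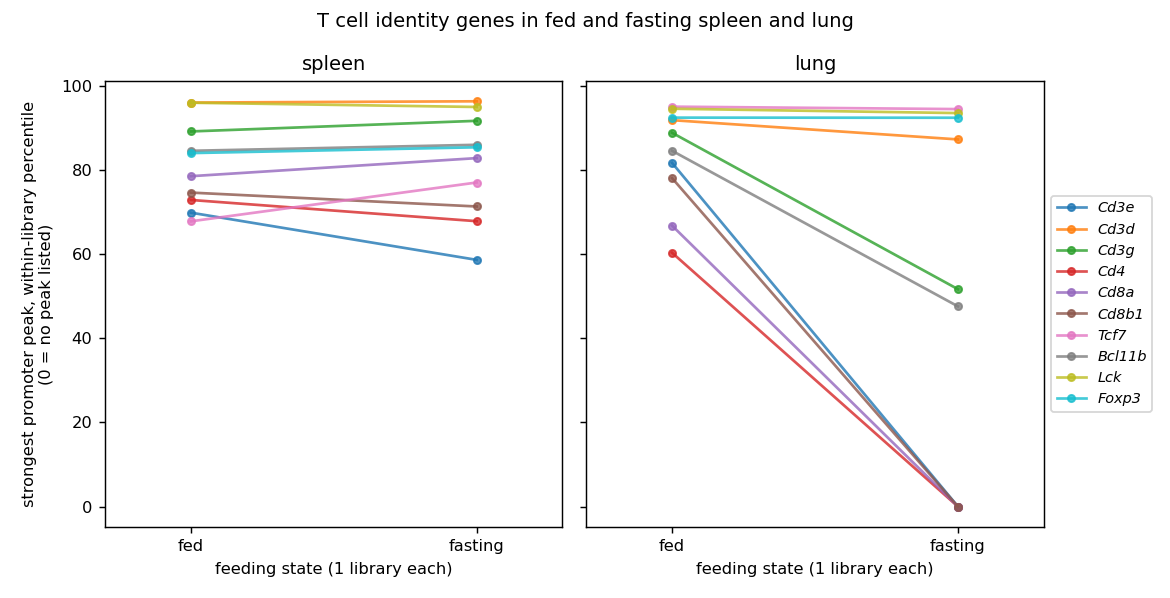
Scores (percentile, y axis) of the 10 members in the fed and the fasting library of spleen (left) and lung (right), 1 line per gene. The spleen lines are close to level, and in lung 4 lines end at 0, those of Cd3e, Cd4, Cd8a and Cd8b1.

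The fasting lung library was the shallower of the pair, at 7.14 against 8.92 background tags. With the summit tags of all libraries scaled to the lowest background tag number, 2.80, and only peaks with p under 1e-05 on that scale kept, an alternative added after the values were seen that matches the background and no other property of a library, the median difference in lung was −30.1 points and the same 4 promoters were listed in fed lung and not in fasting lung. Fed lung then scored 64.0 at Cd3e, 23.6 at Cd4, 36.7 at Cd8a and 57.7 at Cd8b1. With 1 library of pooled tissue in each state, feeding state, dissection and the mice in the pool cannot be told apart.

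Markers of other blood cells also differed between the lung libraries. Of all protein-coding genes, 40.4% scored lower in fasting lung, and 5.53% by 10 points or more. Of 10 B cell genes, 9 scored lower in fasting lung, 3 of them by 10 points or more, with a median difference of −6.3 points. The summed score was 822 in fed and 727 in fasting lung, and none was at 0. Of 8 natural killer cell genes, 7 were lower, all by 10 points or more, with a median of −23.2. Their summed score was 387 in fed and 202 in fasting lung, with Ncr1 at 0 in the fed and Gzma and Klrk1 at 0 in the fasting library. Of 8 myeloid genes, 5 were lower, 4 by 10 points or more, with a median of −8.1. Their summed score was 511 and 398, and Cybb, a subunit of the phagocyte oxidase, was at 0 in fasting lung. Of 6 erythroid genes 2 were lower and 2 higher, with sums of 307 and 265, and Gata1 and Slc4a1 were at 0 in both libraries, with Hbb-bt at 0 in fasting lung too. Spleen was highest of the 8 tissues at 6 of the B cell genes, 7 of the natural killer cell genes, 5 of the myeloid genes and 1 of the erythroid genes. It was highest at 17% of all protein-coding genes, and the erythroid count lay near that share. The median difference over all protein-coding genes in lung was 0. The part of these cell types in the result was not tested.

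Other genes of the T cell receptor pathway showed the same direction. Of 20 signalling genes, 17 scored lower in fasting lung (40.4% of all genes), 13 by 10 points or more (5.53%), with a median of −24.4 points. Icos and Ctla4, which encode costimulatory and inhibitory receptors, went from 74.6 and 64.6 in fed lung to 0. In spleen, 14 of the 20 were highest of the 8 tissues (17% of all genes) and 11 met the stricter form (8.37%). The largest excess of spleen over the 7 other tissues was at Themis, a thymocyte signalling adaptor (80.6 points). The smallest was at Fyn (3.8) and Plcg1 (−1.6), a kinase and a phospholipase that many cell types use. Of 12 T cell transcription factors, 8 were lower in fasting lung, with a median of −0.7. Only 1 was lower by 10 points or more, near the 5.53% of all genes. In spleen 10 of the 12 were highest of the 8 tissues, beside 17% of all genes.

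Across all 8 tissues the members gave no common direction. Muscle had 5 members lower by 10 points or more in the fasting library, beside 5.25% of all genes, among them Cd3d (61.2 fed, 11.7 fasting), Cd3g (48.1 and 0) and Cd3e (43.4 and 0). The muscle libraries differed in depth, at 6.39 background tags fed and 10.6 fasting, and listing needed 16 and 26 tags. The fed muscle peaks at Cd3e and Cd3g rested on 26 tags each. With tags scaled to the lowest background, Cd3e averaged 0 over the 6 tissues other than spleen and lung. On that scale Cd3g was lower in the fasting library in 1 of 8 tissues, lung. Liver had 5 members higher by that much in the fasting library, beside 8.48%, among them Cd3g (0 fed, 51.5 fasting) and Bcl11b (0 and 42.1). In the exact sign-flip test over 8 tissues no member reached 0.05, beside 4.72% of all genes. Its smallest two-sided p is 0.0078, and only for a gene that differs between the states in all 8 tissues. Cd3e, Cd3g, Cd4, Cd8a and Cd8b1 scored 0 in both libraries of several tissues. These members could not reach 0.05 whatever their other values, so the test cannot decide for them. The lowest member value was p = 0.21 at Lck (6 of 8 tissues lower, mean −1.0 ± 2.2 points, SD over 8 tissues) by this exact test. No gene passed after adjustment over all genes (lowest Benjamini-Hochberg value 0.91).

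The surroundings of the genes were examined in windows of the gene body and 20 kb on each side, which merged into 7 stretches of 571 kb in all because the Cd3 genes share 1 stretch and the Cd8 genes another. The 16 libraries together held 322 open regions there. The stretches also held starts of 11 other genes: Skp1a, Fam167b, Hdac1, Rmnd5a, Smyd1, Gpr162, P3h3, Ube4a, Cacna1f, Ccdc22 and Ppp1r3f. Promoter regions of other genes made up 45 of the 322 and are included in the counts. Of the 322 regions, 83 were open in both spleen libraries, 43 in both lung libraries and on average 33.8 in both libraries of the 6 other tissues. Open peaks per kb in the window of each gene had a median over the members of 0.21 in fed and 0.29 in fasting spleen, 0.23 in fed lung and 0.092 in fasting lung. The medians over all protein-coding genes were 0.14, 0.16, 0.10 and 0.099. All 10 members lay above the all-gene median in both spleen libraries, 9 in fed lung and 4 in fasting lung.

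Regions seen in spleen alone made up a similar share around the members and elsewhere. Merging the spleen libraries by themselves, 13 of 88 regions (14.8%) near the members had no listed peak in any other tissue, close to 14.3% of all spleen regions. The strongest, in an intron of Bcl11b 20938 bp downstream of the start, scored 65.1 in both spleen libraries. A further 17 regions were open in both spleen libraries and at least 1 lung library and listed nowhere else, 6 of them around the Cd8 genes.

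The lung difference extended over the windows. Of the open fed lung regions near the members, 84 of 130 (64.6%) had no listed peak in fasting lung, beside 26.2% of all fed lung regions. In the opposite direction it was 9 of 56 (16.1%), beside 23.4%. In spleen, 38 of 129 fed regions (29.5%) had no fasting peak, beside 46.1%, and 59 of 154 fasting regions (38.3%) had no fed peak, beside 49.8%. Near these genes the share held by a single state was thus above that of all regions in fed lung, and below it in fasting lung and in both spleen libraries.

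By stretch, the largest lung difference was at the Cd8 genes, with 37 open regions in fed and 1 in fasting lung, against 20 and 29 in fed and fasting spleen. The Cd3 stretch had 18 and 5 in fed and fasting lung, Cd4 had 15 and 6, and Bcl11b 19 and 10. Tcf7 (17 and 13), Lck (13 and 11) and Foxp3 (2 and 3) differed least. Scaled to that background, the Cd8 stretch had 13 open regions in fed and 0 in fasting lung and the Cd3 stretch 13 and 5.

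**Figure D4:**
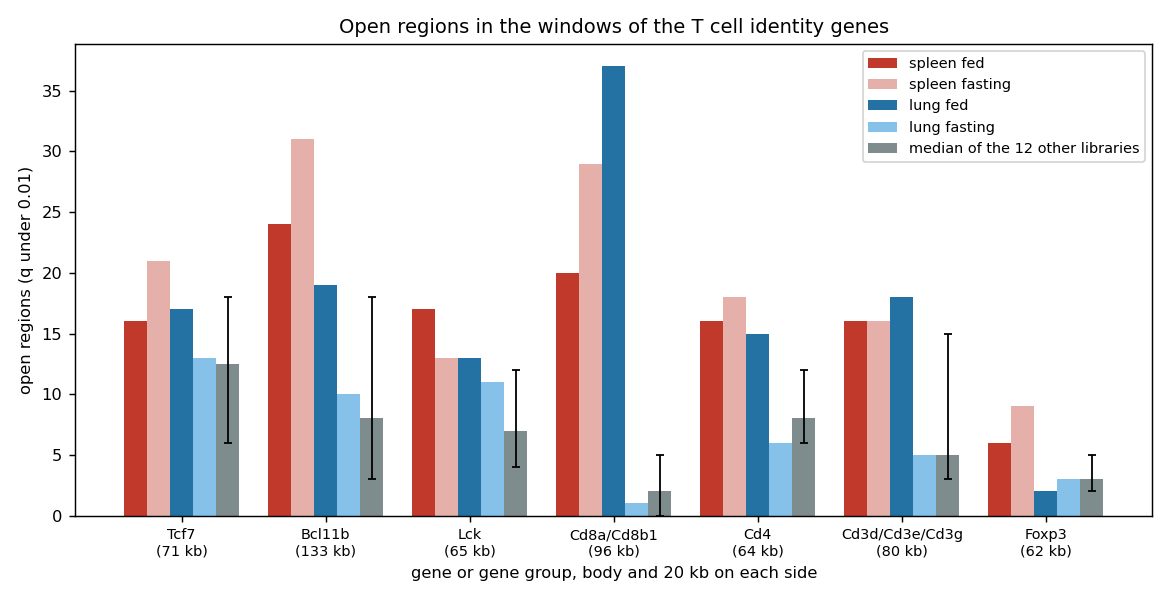
Open regions (q under 0.01, y axis) in each stretch of gene bodies and 20 kb on each side (x axis) in fed and fasting spleen, fed and fasting lung, and as the median of the 12 other libraries, whose whiskers run from the lowest to the highest. Fed lung exceeds fasting lung most at the Cd8 genes, 37 against 1.

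**Figure D5:**
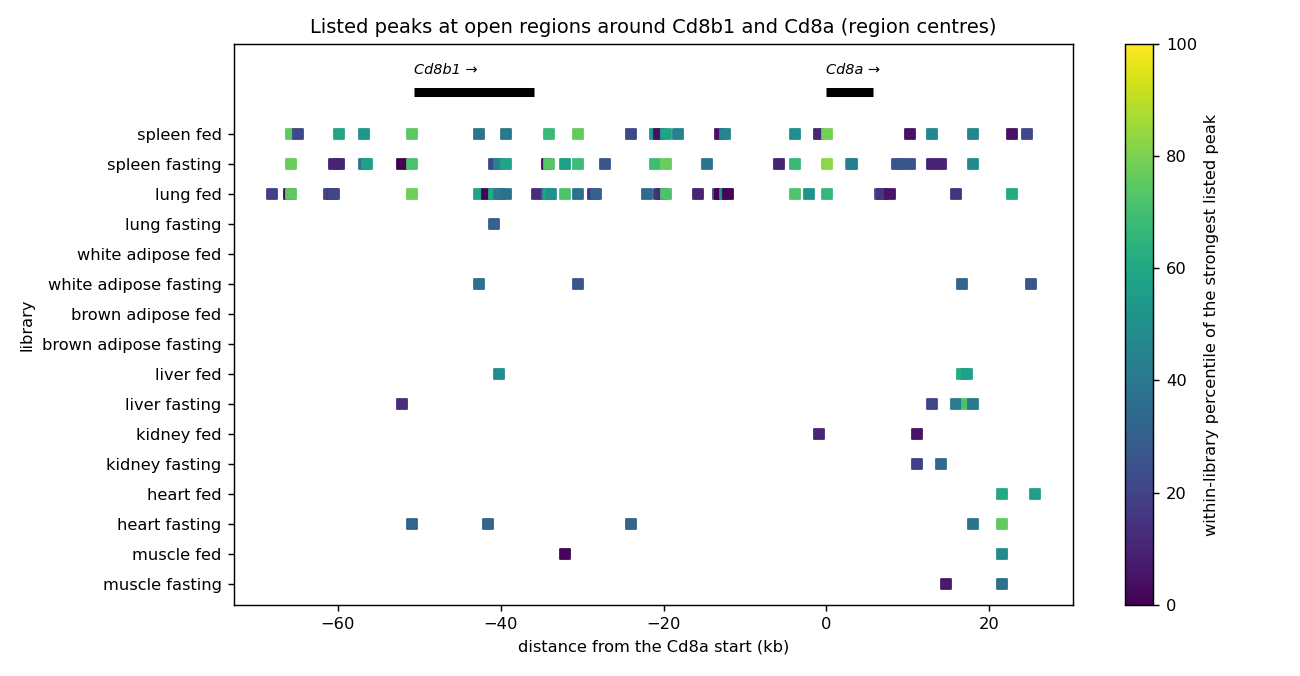
Map of Cd8b1 and Cd8a: each square is a listed peak at an open region, placed by the distance of the region's centre from the Cd8a start (x axis, kb) in each library (y axis) and coloured by its percentile; black bars are the gene bodies. Fed spleen, fasting spleen and fed lung hold most of the squares, and fasting lung holds 1.

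The strongest spleen regions away from any start differed in the same way between genes. They are printed where they were restricted to few libraries, with the letters of short RUNX, TCF/LEF, ETS, GATA and E box motifs, spelled out further on and searched on both strands, in capitals.
Cd3d and Cd3g, region beyond the 3′ end of Cd3e, chr9:44998233-44998353, minus strand: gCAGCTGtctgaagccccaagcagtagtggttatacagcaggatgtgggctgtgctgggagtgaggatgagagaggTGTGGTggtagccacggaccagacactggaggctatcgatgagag
Cd8a, upstream, chr6:71353751-71353871, plus strand: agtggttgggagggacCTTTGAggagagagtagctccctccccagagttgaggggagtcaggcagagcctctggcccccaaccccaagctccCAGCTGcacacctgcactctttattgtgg
Cd8b1, upstream, in an intron of Smyd1, chr6:71307652-71307772, plus strand: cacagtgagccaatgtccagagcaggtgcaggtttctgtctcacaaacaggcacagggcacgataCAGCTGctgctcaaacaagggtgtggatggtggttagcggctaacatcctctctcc
Bcl11b, intron, spleen alone, chr12:107982416-107982536, minus strand: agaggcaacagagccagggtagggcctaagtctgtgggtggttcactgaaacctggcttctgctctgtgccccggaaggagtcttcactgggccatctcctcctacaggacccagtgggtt

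The Cd3 region scored 76.3 and 82.0 in fed and fasting spleen, 50.1 in fed lung and 42.1 in fasting liver, and was not listed in the 12 other libraries. The Cd8a region, 19616 bp upstream, scored 57.8 and 77.1 in spleen and 71.6 in fed lung, and the Cd8b1 region, 15076 bp upstream, scored 75.6 and 77.1 in spleen and 75.2 in fed lung. Neither was listed in any other library. By contrast the strongest region near Cd4, 15504 bp upstream and 6326 bp from the start of Lag3, scored 93.1 to 98.7 in all 16 libraries. The strongest near Lck, 11424 bp upstream of its 5′-most start, was open in all 16, at 96.2 in fed liver, the highest. Near Cd3e, a region 13346 bp upstream scored 93.4 and 81.1 in spleen and was open in 15 libraries, and an intron region of Bcl11b, 42173 bp downstream of the start, scored 87.3 and 90.8 in spleen and up to 96.6 elsewhere. Foxp3 had no spleen region of this kind outside promoter windows. The strongest lung region with no listed spleen peak lay in an intron of Lag3, 16510 bp upstream of Cd4, at 68.6 in fed and 54.3 in fasting lung, and was open in 12 libraries.

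The motif letters were sought within 100 bp of the summit in the 83 spleen regions of the windows and in all 103348 spleen regions. The RUNX letters TGTGGT were found in 15 of 83 (18.1%, against 19.4% of all). The TCF/LEF letters CTTTGA were found in 14 (16.9% against 11%), and the ETS letters GGAAGT in 17 (20.5% against 22.8%). The GATA factor letters AGATAA were found in 4 (4.8% against 6.1%), and the E box letters CAGCTG in 20 (24.1% against 16.5%). A match of letters is no evidence of binding.

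Outside the lists, the protein-coding genes whose scores followed the mean of the 10 members most closely over the 16 libraries were Rag2 (Pearson r = 0.94), Spn (0.94), Lcn4 (0.93), Timm8a2 (0.93) and Sit1 (0.93). Rag2, part of the recombinase of antigen receptor genes, scored 65.4 and 50.9 in fed and fasting spleen, 54.0 in fed lung and 0 in the 13 other libraries. Spn, the leukocyte surface glycoprotein CD43, scored 93.3 and 91.0 in spleen, 73.9 in fed and 48.9 in fasting lung. These correlations describe 16 libraries that pair by tissue and differ in depth, and carry no test.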

How the data were processed

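ATAC-seq libraries, 1 per tissue and feeding state, were analysed from 16 deposited peak lists. Per the labels, the authors used Bowtie2 and MACS2 on GRCm38. The deposited values were fold enrichment over background (a ratio) and −log10 p and −log10 q at each summit, in lists of nearly equal length. The 10 members and the comparison lists (B cell, natural killer cell, myeloid, erythroid, T cell receptor signalling and T cell transcription factors, with Tbx21 in 2 of them) were chosen with earlier results of these data known.

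Peaks were matched to 93513 transcript starts of 21938 protein-coding genes (GENCODE vM21, chromosomes 1 to 19, X and Y). Tags at a summit were solved from fold and p (over 98% of peaks gave whole tags within 0.001 in every library). Differences were tested gene by gene, over tissues, by the exact permutation and exact sign-flip tests, adjusted by Benjamini-Hochberg over all protein-coding genes, in Python 3.11.15 with numpy 2.4.6, pandas 2.3.3 and scipy 1.17.1. The scripts were tested on simulated data. All members were described; in other lists at most the 2 highest and 2 lowest by spleen excess were named (some are not reported here), further genes (Icos, Ctla4 and markers at 0) after their values were seen. With 1 library per group, p-values measure only spread between tissues. All tissues of a state came from the same pooled mice, so the tissues are no independent repeats of a feeding state. Alternatives were windows of 1000 bp, only gene 5′ ends, ranking by fold, distinct regions, ranks among promoters, the 50000 strongest peaks, tags scaled to the lowest background, a q-value under 1e-06 and leaving out tissues.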

Additional observations from a re-analysis of the deposited data

Results flagged for a closer look

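Some members differed between the feeding states in opposite directions in 2 tissues, by 10 points or more each way; with 1 library per tissue and state, these differences between tissues were not tested. Cd4 differed by −60.3 points, fasting minus fed, in lung and by 70.0 in heart. Cd8a differed by −66.8 in lung and 20.3 in heart, and Cd8b1 by −78.1 in lung and 32.1 in heart. The fasting heart peaks at Cd8a and Cd8b1 rested on 16 and 17 tags, in a library in which 15 tags at background sufficed for listing. The Cd8a peak there was listed but not open. With tags scaled to the lowest background, both genes averaged 0 over the 6 tissues other than spleen and lung. Cd8b1 also averaged 0 there with each peak counted for its nearest gene only. Cd3d differed by −49.6 in muscle and 26.9 in brown adipose, Cd3g by −48.1 in muscle and 51.5 in liver, and Bcl11b by −37.3 in muscle and 42.1 in liver. The fasting brown adipose peak at Cd3d rested on 18 tags, while fed brown adipose needed 35 tags at background for listing. The fed muscle peaks at Cd3g and Bcl11b rested on 26 and 22 tags, while fasting muscle needed 26 tags at background for listing. The fasting liver peaks at Cd3g and Bcl11b rested on 15 and 13 tags, in a library in which 9 tags at background sufficed for listing.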

How the results depend on the processing

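Of 121 alternative values, 97 stayed the same by the margins used, 23 moved and 1 reversed. Spleen was highest at 7 members as reported and at 5 to 8 under all alternatives but the 50000 strongest peaks, which left 3; spleen and lung led together at 5, at 2 with those peaks, and at 2 in fasting libraries only (added after the values were seen). The median member score in spleen, 82.7, was 86.3 when ranked by fold, 86.1 over distinct regions, 28.8 among promoters, 4.2 among the 50000 strongest peaks and 76.8 with the nearest gene only; in lung, 68.2 became 16.1 among promoters and 10.3 among the strongest; in the 6 other tissues, 23.5 became 5.2 and 0. Some medians counted as the same also shifted. In lung 68.2 became 53.5 with the nearest gene only. In the 6 other tissues 23.5 became 9.9 in windows of 1000 bp, 11.4 with only gene 5′ ends and 14.4 with the nearest gene only. The lung difference of −37.1 points was −10.8 among promoters and −1.8 among the strongest. The median over members of the mean difference, −3.6, was 1.7 without lung, and −4.7 to −0.84 when any other tissue was left out. Lck alone passed the exact sign-flip test at scaled background (p = 0.023) or without heart (p = 0.047), so 1 member instead of 0. Window regions of spleen, 83, became 34 with no extension, 125 with 50000 bp and 47 at q under 1e-06; those of lung, 43, became 21 and 81; the mean of the other tissues, 33.8, became 12.8 and 67.5. Shallow spleen and liver libraries limit what could be listed there. No paired analysis was possible because each group held a single library, other than the sign-flip test, which pairs the fed and fasting libraries of a tissue.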
